A study of Mus musculus with 6 samples.

Results

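The genes of creatine synthesis, uptake and cycling were followed in brown adipose tissue (BAT) of sST2-KO and WT mice: Gatm and Gamt, which make creatine, Slc6a8, which imports it, the kinase genes Ckb, Ckm, Ckmt1 and Ckmt2, and the phosphatase gene Alpl. They were chosen by gene symbol, and all 8 were found among the 35976 rows of the count table. Each group had 3 male mice of 10 weeks on a C57BL/6J background, 1 library per mouse, named WT1 to WT3 and KO1 to KO3 here. sST2-KO mice carry a CRISPR/Cas9 deletion of the Il1rl1 introns that hold the stop codon of the soluble receptor sST2. The deletion is in the germline and so not limited to fat, and the WT mice were littermates. BAT had been surgically denervated in both groups and both had spent 8 h at 10 °C, so the comparison asks how denervated, cold-exposed BAT differed with the loss of sST2.

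Creatine is built in 2 steps. Gatm joins arginine and glycine to guanidinoacetate, and Gamt methylates this to creatine, which cells without synthesis take up through Slc6a8. Creatine kinases then pass phosphate between ATP and creatine, in the cytosol through Ckb, the brain-type form, and Ckm, the muscle-type form, and in the space between the mitochondrial membranes through Ckmt1, the ubiquitous form, and Ckmt2, the sarcomeric form. In thermogenic fat, phosphorylation by Ckb and hydrolysis of phosphocreatine by the product of Alpl have been described as a futile cycle that spends ATP as heat without Ucp1. By qPCR in denervated, cold-exposed BAT of both genotypes, the paper reported creatine futile cycling genes, not named in its text, as unaltered.

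The libraries held 8159442 to 12874809 counts. Levels are given as CPM, the counts of a gene over the library's total after edgeR's TMM scaling, and as mean ± SD of 3 mice. Differences are log2 fold changes of sST2-KO over WT with their standard errors (SE), tested by the quasi-likelihood method of edgeR over the 14542 genes that passed its expression filter. Genes past 2-fold whose Benjamini-Hochberg adjusted p was under 0.05 were called, which was 16.1% of all tested, and 19.6% had such a p at any fold. The targeted gene Il1rl1 had 19, 19 and 6 counts in WT1 to WT3 against 55, 69 and 142 counts in KO1 to KO3, where counts per gene do not separate sST2 from the membrane form. The tissue carried its brown adipocyte markers in both groups, though all 10 were called lower in sST2-KO mice, beside 7.1% of all genes. Their sum was 9089 to 17348 CPM in WT and 371 to 2005 CPM in sST2-KO libraries. Markers of other cells differed as well. The sum of 20 skeletal muscle genes was 1576, 83.5 and 73.7 CPM in WT1 to WT3 against 7937, 4163 and 17838 CPM in KO1 to KO3. All 20 were higher without overlap between the groups, as were 21.8% of all genes. Of the 20, 4 were called higher, beside 9.04% of all genes. Of these 20 genes, Myh2 and Cacna1s had no count in WT2 and WT3, and Myh4, Pvalb and Myoz1 had none in WT3. These could not pass the expression filter through the WT libraries alone. Their upward separation was thus partly built in and is no support beside these shares. Macrophage markers summed to 892 to 1198 CPM in WT and 1580 to 6765 CPM in sST2-KO libraries, and neutrophil markers to 31.7 to 135 CPM and 147 to 721 CPM. Alb, the albumin gene of liver, had 33870 counts in WT2 and 254 or fewer in the others. In bulk tissue, fewer cells of a type and less RNA per cell cannot be told apart.

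Of the 8 creatine genes, 7 passed the expression filter. Ckmt2 and Gatm were called higher in sST2-KO mice, where 9.04% of all genes tested were called in that direction. Ckmt2 entered the test only through its counts in sST2-KO mice, so its call is no support beside that share. Ckm, with 0 counts in WT3, also passed the filter through the sST2-KO group. The p values and the separation of Ckm and Ckmt2 given below are thus no support either. None was called lower by edgeR, where 7.1% of all genes were. At an unadjusted p under 0.05, edgeR gave 3 of the 7 as higher, among them Ckm and Ckmt2, and 2 as lower. Over all genes these shares were 19.6% and 16.7%. DESeq2 called 1 higher and 1 lower, beside 19.9% of all genes called. In Ckm, Ckmt2 and Gatm every sST2-KO value lay above every WT value, and in Ckb and Gamt every one lay below. Over all genes tested, the groups did not overlap in 21.8% upward and 19.7% downward, 41.5% together.

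**Figure D1:**
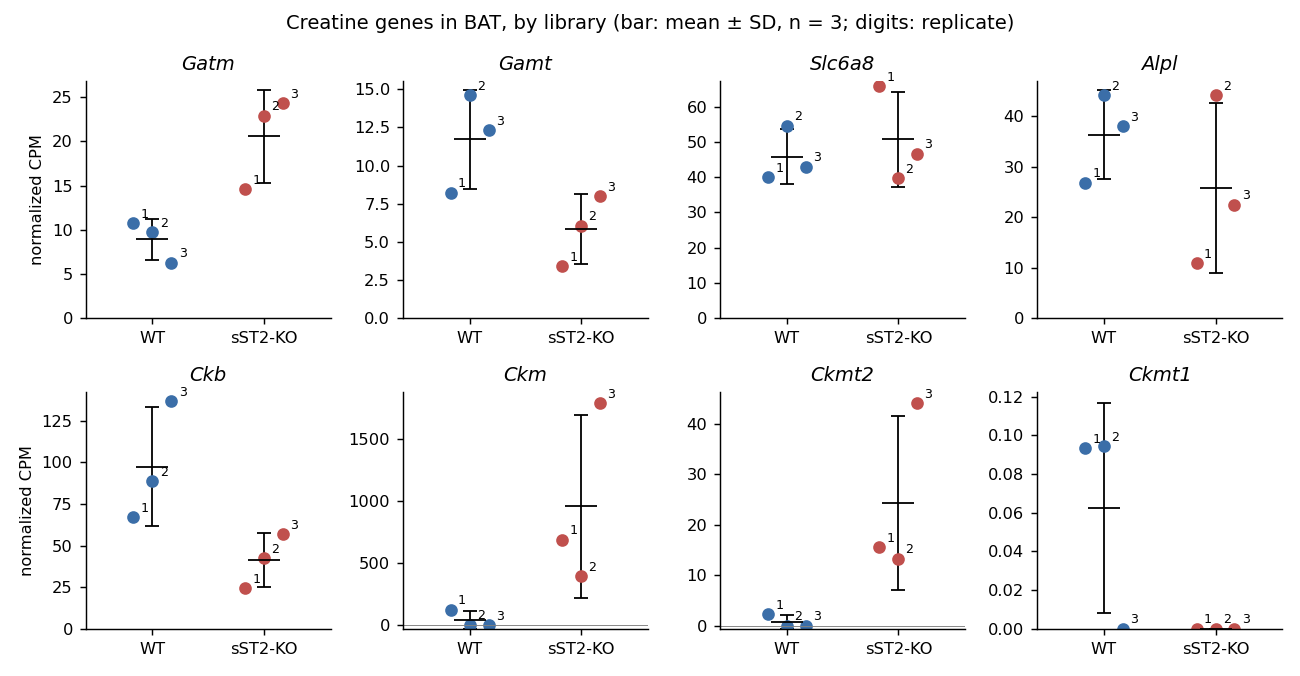
Normalized CPM of the 8 creatine genes (vertical axes from 0, except where the SD reaches below it) in the 3 WT libraries (blue) and the 3 sST2-KO libraries (red), with the mean ± SD in black and the replicate number beside each point. Gatm, Ckm and Ckmt2 are separated upward and Ckb and Gamt downward in sST2-KO mice, while Slc6a8 and Alpl overlap and Ckmt1 has 1 count or none in each library.

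Of the 2 synthesis genes, Gatm rose in sST2-KO mice, while Gamt had lower values that did not pass the test. Gatm, which encodes the arginine:glycine amidinotransferase and catalyzes the first and committed step, lies on the minus strand of chromosome 2 of GRCm39 from 122424948 to 122441799, and its canonical transcript has 9 exons. It had 10.7, 9.71 and 6.29 CPM in WT1 to WT3 against 14.6, 22.9 and 24.3 CPM in KO1 to KO3. The lowest sST2-KO library thus lay above the highest WT library. Gatm rose 2.30-fold, from 8.91 ± 2.33 CPM to 20.6 ± 5.26 CPM, a log2 fold change of 1.20 (SE 0.30, edgeR adjusted p = 0.0335). DESeq2 gave 1.19 with an adjusted p of 0.00437. The call rested on several libraries. Without WT2 or WT3 the log2 fold change was 1.26 or 1.00, with an adjusted p of 0.0817 or 0.118. Without KO2 or KO3 it was 1.10 or 1.06, with an adjusted p of 0.0876 or 0.0901. Muscle RNA moved with Gatm in part. Both were highest in WT1 and lowest in WT3 among the WT libraries and highest of all in KO3, while KO2 had the lowest muscle sum of its group and 22.9 CPM of Gatm. Over the 6 libraries, which fall into 2 groups, the log2 CPM of Gatm had a Pearson r of 0.89 with Ckm and 0.91 with Ckmt2, and the part of muscle RNA in the change of Gatm was not tested. No exon of another annotated gene overlapped it, and Gatm shared 0 of its 2305 windows of 100 bases with transcripts of other genes.

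Gamt, which encodes guanidinoacetate N-methyltransferase and uses S-adenosylmethionine for the second step, lies on the minus strand of chromosome 10 from 80089960 to 80096860. It had 8.21, 14.6 and 12.3 CPM in WT1 to WT3 against 3.41, 6.05 and 7.999 CPM in KO1 to KO3. The groups were set apart only by the narrow step between WT1 and KO3. The means were 11.7 ± 3.24 CPM and 5.82 ± 2.30 CPM, with a log2 fold change of -1.01 (SE 0.38, edgeR adjusted p = 0.0983), so the difference did not pass. DESeq2 gave -1.03 with an adjusted p of 0.0542. Liver is rich in Gamt, and the highest value was in WT2, the library with the counts of Alb. Without it the log2 fold change was -0.83. The share of liver RNA in that value was not tested.

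The reads of Gamt could also include those of a neighbor. Its canonical transcript of 5027 bases shares 1325 bases of exon with Ndufs7, a complex I subunit gene on the opposite strand, which was picked out after its values were seen. Ndufs7 had 264, 447 and 524 CPM in WT1 to WT3 against 99.2, 143 and 66.9 CPM in KO1 to KO3. This was a log2 fold change of -2.001 (SE 0.37, edgeR adjusted p = 0.0167). Ndufs7 had between 8.36 and 42.5 counts for each count of Gamt, and the NEBNext Ultra kit of these libraries does not mark strand, so reads of the pair cannot be told apart where they overlap.

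The transcript of the creatine transporter showed no difference that passed the test. Slc6a8, the sodium- and chloride-dependent creatine transporter gene on the X chromosome from 72716728 to 72726108, had 39.9, 54.6 and 42.9 CPM in WT1 to WT3. In KO1 to KO3 it had 65.8, 39.6 and 46.6 CPM. The groups overlapped, with the highest and the lowest of the 6 values both in sST2-KO libraries. The log2 fold change of Slc6a8 was 0.15 (SE 0.24, edgeR adjusted p = 0.690), with a 95% interval from -0.32 to 0.61 taken from the standard error. A change as large as 2-fold in either direction lay outside this interval. The direction itself rested on KO1, without which the value was -0.088. Slc6a8 overlaps 2 long noncoding genes on the opposite strand, Gm32261 and Gm61844, with 165 and 273 shared exon bases.

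Alpl, which encodes the tissue-nonspecific alkaline phosphatase that can hydrolyze phosphocreatine, lies on the minus strand of chromosome 4 from 137469039 to 137524102. It had 26.9, 44.2 and 38.1 CPM in WT1 to WT3 against 10.9, 44.1 and 22.5 CPM in KO1 to KO3. KO2 matched the highest WT library, and the other 2 sST2-KO libraries lay below all WT libraries. The log2 fold change was -0.50 (SE 0.47, edgeR adjusted p = 0.479), with a 95% interval from -1.41 to 0.41. This interval includes a fall of more than 2-fold and a rise, so the spread between mice left the direction of Alpl unresolved. Without KO2 the value was -1.15 (adjusted p = 0.0937), and without KO1 it was -0.12. KO2 also had the highest Ucp1 of its group, 1042 CPM against 160.4 and 153 CPM.

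The promoters of the kinase genes are shown because the fold changes of Ckb and of Ckm and Ckmt2 had opposite signs. They are the 250 bases before the start of transcription as listed by RefSeq for GRCm38.p6, placed on GRCm39 by an exact match and written 5′ to 3′ on the strand of the gene. In Ckb, Ckm and Ckmt2 this start lies inside the gene bounds of GENCODE, and positions would differ with another start. Capitals mark matches to the TATA box TATAAA, the E-box CAGCTG, which myogenic factors can bind, and a MEF2-type pattern, CTA and TAG with 4 bases between them, each searched on both strands.
Ckb, chr12:111638773-111639022, minus strand: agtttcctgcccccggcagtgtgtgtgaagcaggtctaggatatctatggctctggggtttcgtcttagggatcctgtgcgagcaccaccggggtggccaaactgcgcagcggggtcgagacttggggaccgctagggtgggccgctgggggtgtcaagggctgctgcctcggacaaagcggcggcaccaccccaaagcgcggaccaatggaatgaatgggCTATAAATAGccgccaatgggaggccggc
Ckm, chr7:19144769-19145018, plus strand: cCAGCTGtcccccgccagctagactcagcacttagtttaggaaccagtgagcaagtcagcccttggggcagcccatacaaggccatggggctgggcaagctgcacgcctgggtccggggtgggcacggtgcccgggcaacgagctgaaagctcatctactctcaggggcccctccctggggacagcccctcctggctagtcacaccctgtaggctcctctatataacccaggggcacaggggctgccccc
Ckmt2, chr13:92025005-92025254, minus strand: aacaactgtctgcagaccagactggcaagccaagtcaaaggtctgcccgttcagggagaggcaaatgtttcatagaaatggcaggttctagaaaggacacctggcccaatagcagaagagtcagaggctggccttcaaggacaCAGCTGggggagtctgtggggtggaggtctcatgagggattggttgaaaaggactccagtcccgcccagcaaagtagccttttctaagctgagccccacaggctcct
In Ckb the run CTATAAATAG at -29 to -20 from the start matched the MEF2-type pattern and held a TATA box at -28 to -23, so these 2 matches are the same bases. Ckm had 1 E-box at -249 to -244 and Ckmt2 had 1 at -107 to -102. Of the 32851 promoters listed by RefSeq, 3.20% hold the MEF2-type pattern, 12.4% hold TATAAA and 4271 hold CAGCTG in the same 250 bases, and a match says nothing of whether a factor was bound. The other members were searched as well, apart from Slc6a8, and Ckmt1 and Alpl each have 2 listed promoters. In these, a TATA box was found in 1 of the 2 promoters of Ckmt1 and 1 of the 2 of Alpl, the other Alpl promoter held an E-box, and Gatm and Gamt held none of the 3 patterns. Also searched, without marking, were the ERR site TCAAGGTCA, the CRE TGACGTCA and the GC box GGGCGG. No promoter of a member searched held the ERR site or the CRE. The GC box was found in Ckmt2, Gamt and Alpl, and in 32.7% of all listed promoters.

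Ckb was lower in every sST2-KO library, by a margin that just missed the threshold. The gene lies on the minus strand of chromosome 12 from 111635789 to 111639008, with 8 exons in its canonical transcript. It had 67.1, 88.5 and 137 CPM in WT1 to WT3 against 24.3, 42.5 and 56.8 CPM in KO1 to KO3. The highest sST2-KO library lay below the lowest WT library. The mean was 97.4 ± 35.7 CPM in WT mice and 41.2 ± 16.3 CPM in sST2-KO mice, a log2 fold change of -1.24 (SE 0.37, edgeR adjusted p = 0.0535). DESeq2 called the same difference, with a log2 fold change of -1.26 and an adjusted p of 0.0101. When 1 library was dropped at a time, its value ranged from -1.55 to -0.92 and edgeR's adjusted p from 0.0507 to 0.180. Of 1373 windows of 100 bases in the Ckb transcript, 151 also occur in the transcript Gm12892, so the count of reads from these windows is uncertain.

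Of 9 genes common to all adipocytes, 1 was called lower, beside 7.1% of all genes. Without overlap, 7 of the 9 were lower, as were 19.7% of all genes. The sum of the 9 was 22096 to 27294 CPM in WT libraries and 8411 to 14745 CPM in sST2-KO libraries, and Adipoq, the adiponectin gene, had a log2 fold change of -1.24 (SE 0.31, edgeR adjusted p = 0.0335). Set against the 9 adipocyte genes within each library, the log2 ratio of Ckb was -8.36, -8.15 and -7.64 in WT1 to WT3 against -9.23, -8.44 and -7.21 in KO1 to KO3. The groups then overlapped, and the difference was -0.24 (exact two-sided permutation test, p = 0.8, adjusted p = 0.8 over 4 ratios, n = 3 per group). Without KO1 it was 0.23. Ucp1, at 5229 to 10522 CPM in WT and 153 to 1042 CPM in sST2-KO libraries, had a log2 fold change of -4.04 (SE 0.87, edgeR adjusted p = 0.0226).

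Ckm had higher values in sST2-KO mice, the highest in the library with most muscle RNA, but the difference did not pass the test. The gene lies on the plus strand of chromosome 7 from 19138701 to 19157965. It had 1346, 20 and 0 counts in WT1 to WT3, which is 126, 1.88 and 0 CPM. In KO1 to KO3 it had 9888, 3305 and 18148 counts, or 689, 392 and 1792 CPM. All sST2-KO libraries lay above all WT libraries, yet on a log scale WT1 was nearer to them than to WT2 and WT3. By mean CPM, Ckm ranked 4319th among the genes tested in WT mice and 70th in sST2-KO mice. The log2 fold change of 4.49 (SE 1.89) had an edgeR adjusted p of 0.131. Ckm passed the expression filter through the sST2-KO group, so a difference was built into its being tested. Without WT1 it was 9.87 with an adjusted p of 0.0258, and WT3 has no count, for which 3 counts, or 0.370 CPM, is the limit of detection.

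Against the muscle genes of the same library, Ckm was at a similar level in WT1 and the 3 sST2-KO libraries and lower in WT2 and WT3. For each 100 counts of the 20 muscle genes there were 7.97 counts of Ckm in WT1 and 8.68, 9.42 and 10.05 in KO1 to KO3. In WT2 and WT3 there were 2.26 and 0, where the muscle genes themselves had 886 and 598 counts. The mean log2 ratio differed by 3.02 between the groups (exact two-sided permutation test, p = 0.1, adjusted p = 0.133 over 4 ratios, n = 3 per group), and 0.1 is the smallest p that 3 against 3 allows. Without WT3 it was 1.13, and it was 1.83 with the mean log2 CPM of the list in place of its sum. Acta1, a skeletal actin gene, had 388, 5.65 and 0.740 CPM in WT1 to WT3 against 1813, 1042 and 3906 CPM in KO1 to KO3, in the same order as Ckm. Atp2a1, the calcium pump of fast muscle, had 260.5, 4.52 and 3.33 CPM and 1187, 629.8 and 2734 CPM. The antisense gene A930016O22Rik, picked out after its values were seen, shares 623 bases with the exons of Ckm and had 19 counts for the 20 of Ckm in WT2 and 57.8% to 62.3% of the Ckm count in WT1 and the sST2-KO libraries, and reads of the pair cannot be told apart there. Whether the muscle RNA came from tissue beside the fat pad was not tested.

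**Figure D2:**
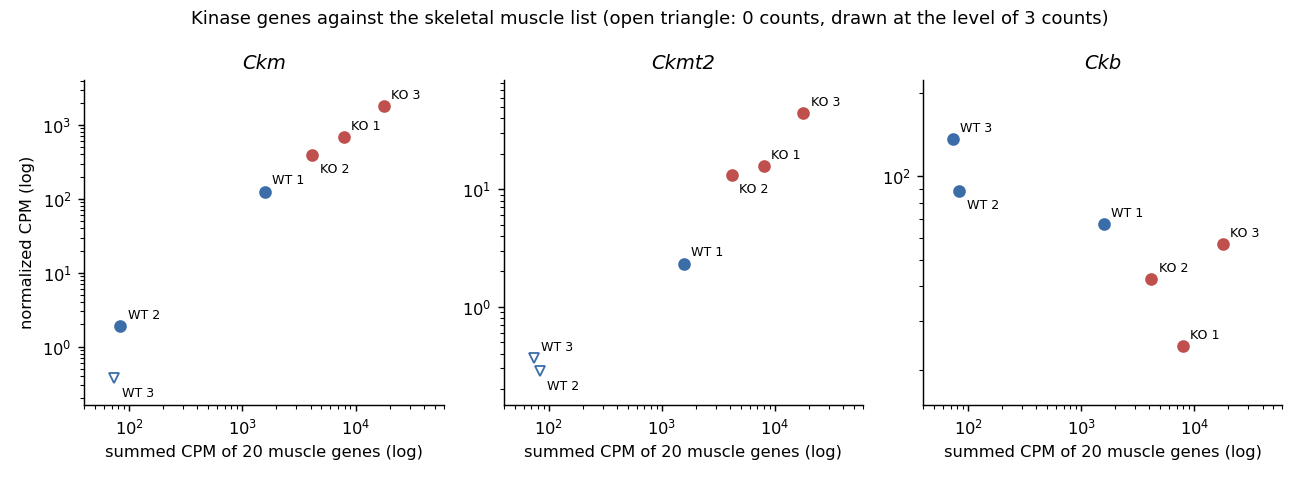
Normalized CPM of Ckm, Ckmt2 and Ckb against the summed CPM of 20 skeletal muscle genes in the same library, both on log axes, with WT in blue and sST2-KO in red. Ckm and Ckmt2 rise with the muscle sum from WT 1 to KO 3, open triangles are libraries with 0 counts drawn at 3 counts, and Ckb lies between 67.1 and 137 CPM in WT and between 24.3 and 56.8 CPM in sST2-KO libraries.

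By counts over coding length, Ckb was the main kinase transcript in WT2 and WT3, and Ckm in WT1 and the 3 sST2-KO libraries. The order in WT1 depends on the length used, since the canonical transcript has 4058 bases in Ckm and 1472 in Ckb. Per kilobase of coding sequence, Ckb stood at 58.7, 77.4 and 120 CPM in WT1 to WT3 and Ckm at 110, 1.65 and 0 CPM. In KO1 to KO3, Ckb stood at 21.3, 37.2 and 49.7 CPM per kilobase and Ckm at 603, 343 and 1568 CPM per kilobase. Ckb made up 34.4%, 97.8% and 100% of the summed kinase level in WT1 to WT3 and 3.34%, 9.51% and 3.01% in KO1 to KO3. The log2 ratio of Ckm to Ckb counts was 0.90, -5.52 and -11.12 in WT1 to WT3 against 4.82, 3.20 and 4.98 in KO1 to KO3, a difference of 9.58 (exact two-sided permutation test, p = 0.1, adjusted p = 0.133 over 4 ratios, n = 3 per group). When 1 library was dropped at a time it ranged from 6.64 to 12.65, and the lowest of these values was the one without WT3. The value of WT3 is set by the 0.5 added to its count of 0, and with 5 added the difference was 8.37.

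**Figure D3:**
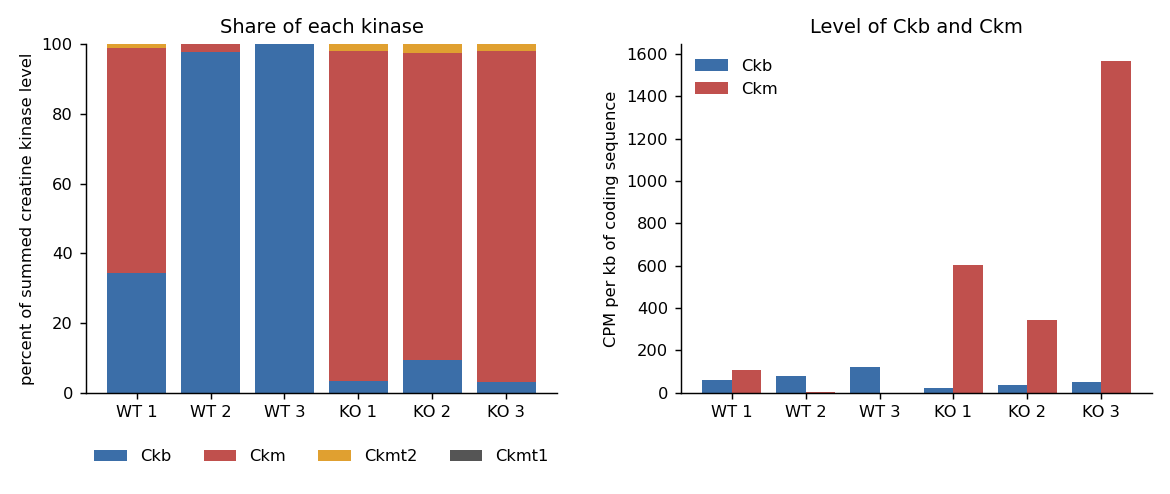
Left, the percent of the summed creatine kinase level (CPM per kilobase of coding sequence) held by each kinase gene in each library. Right, the levels of Ckb and Ckm on the same scale, from 0. Ckb holds 97.8% and 100% in WT 2 and WT 3 but 34.4% in WT 1, and Ckm holds 87.8% to 94.9% in the 3 sST2-KO libraries.

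Of the mitochondrial kinases, Ckmt2 was detected in WT1 and the sST2-KO libraries, and Ckmt1 in none above the limit of detection. Ckmt2, on the minus strand of chromosome 13 from 92001503 to 92025608, had 25, 0 and 0 counts in WT1 to WT3 against 224, 112 and 447 counts in KO1 to KO3. In CPM these were 2.33, 0 and 0 against 15.6, 13.3 and 44.1. Ckmt2 was above the limit of 3 counts in 1 WT library, the one with most muscle RNA, and in all sST2-KO libraries. It passed the expression filter through the sST2-KO group, so a difference was built into its being tested. The log2 fold change was 4.88 (SE 1.17, edgeR adjusted p = 0.0291). DESeq2 gave 4.96 with an adjusted p of 0.0712. The call was also lost without WT2 (4.28, adjusted p = 0.0688), WT3 (4.36, adjusted p = 0.0973) or KO3 (4.12, adjusted p = 0.0659), and without WT1 the fitted value was 10.97, which depends on the prior count since WT2 and WT3 had no count.

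Per 100 counts of the muscle genes, Ckmt2 had 0.148 counts in WT1 and 0.197, 0.319 and 0.247 counts in KO1 to KO3. The 886 and 598 muscle counts of WT2 and WT3 came with none of Ckmt2, where 3 counts would be 0.339 and 0.502 per 100, so a ratio like that of the other libraries could not have been detected there. The log2 ratio to the muscle list differed by 1.49 between the groups when 0.5 was added to each count (exact two-sided permutation test, p = 0.1, adjusted p = 0.133 over 4 ratios, n = 3 per group), and by -0.77 when 5 was added. No direction can be read from it. Ckmt1, on the plus strand of chromosome 2 from 121188195 to 121195706, had 1, 1 and 0 counts in WT1 to WT3 and none in sST2-KO mice, which is at or under the limit of detection in each library.

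**Figure D4:**
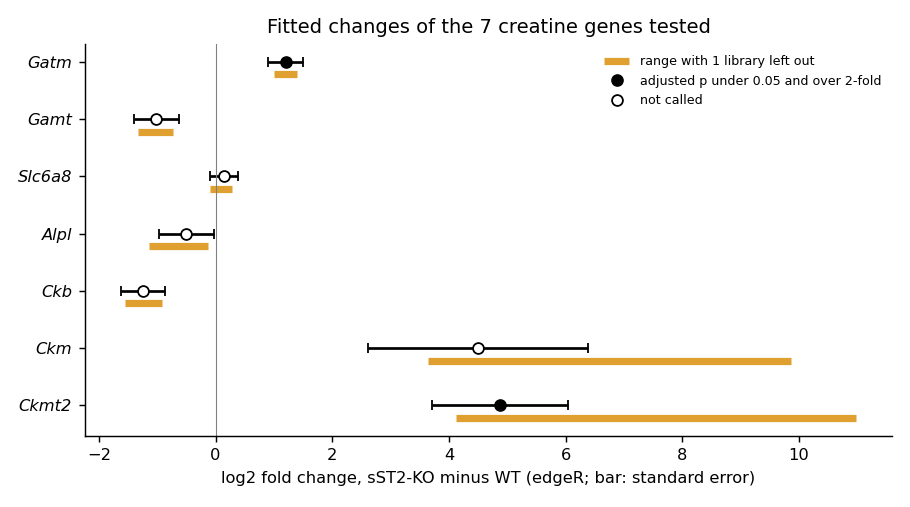
Log2 fold changes of sST2-KO over WT from edgeR for the 7 creatine genes tested (points, filled where called, with standard errors) and the range of the fitted value with 1 library left out at a time (yellow bars). Gatm and Ckmt2 are called, Ckb lies at -1.24 with an adjusted p of 0.0535, and the bars of Ckm and Ckmt2 reach 9.87 and 10.97, the values without WT1.

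Genes that feed or flank the pathway were followed in a list of 30, of which 24 were tested. Of these, 4 were called lower in sST2-KO mice and none higher by edgeR, where 7.1% and 9.04% of all genes were called. At an unadjusted p under 0.05 edgeR gave 8 of the 24 as lower and 2 as higher, beside 16.7% and 19.6% of all genes. DESeq2 called 4 of them lower and 1 higher, beside 19.9% of all genes called in either direction. Their median on the log2 scale was -0.37, beside 0.034 over all genes tested.

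In the supply of arginine and glycine, 2 of 7 genes were called lower, beside 7.1% of all genes. Asl, argininosuccinate lyase, which releases arginine, had 58.5, 189 and 270.5 CPM in WT1 to WT3 against 23.7, 25.2 and 22.2 CPM in KO1 to KO3. It fell by 2.87 on the log2 scale (SE 0.51, edgeR adjusted p = 0.0158). Shmt1, the cytosolic enzyme that interconverts serine and glycine, fell by 1.49 on the log2 scale (SE 0.31, edgeR adjusted p = 0.0215), from 32.4, 49.7 and 49.1 CPM to 19.1, 18.3 and 9.38 CPM. The log2 fold changes of Oat and Shmt2 were 0.21 and 0.10. Ass1 and Arg1, both abundant in liver, had 155 and 85.3 CPM in WT2 against at most 11.96 and 5.13 CPM in the other WT libraries, and Arg1 had 363 CPM in KO3, the library with the highest macrophage sum. Arg2 had a log2 fold change of 2.05 with an adjusted p of 0.0575.

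Of the 6 genes tested in the list for methyl groups, 1 was called lower, beside 7.1% of all genes. Ahcyl1, a relative of the enzyme that clears S-adenosylhomocysteine, had 469, 485 and 675 CPM in WT1 to WT3 against 203, 205 and 100.2 CPM in KO1 to KO3. It fell by 1.68 on the log2 scale (SE 0.33, edgeR adjusted p = 0.0186). Ahcy, which encodes the enzyme itself, had a log2 fold change of -0.69 (edgeR adjusted p = 0.344), with overlap between the groups. Whether the fall of Ahcyl1 bears on methyl supply was not tested. Adk, adenosine kinase, had a log2 fold change of -0.85 (adjusted p = 0.0421), short of 2-fold. Mat2a and Mat2b, which make S-adenosylmethionine outside the liver, had 0.26 and 0.019. Mat1a, the liver form, had 2748 counts in WT2 and 9 or fewer in every other library.

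None of the adenylate kinase and ATP/ADP exchange genes was called by edgeR. The carriers Slc25a4 and Slc25a5 and the porins Vdac1, Vdac2 and Vdac3, which move nucleotides across the mitochondrial membranes, had log2 fold changes between -0.68 and -0.31, and their adjusted p values were 0.0670 to 0.314. Ak3, the adenylate kinase of the mitochondrial matrix, had -0.83 (adjusted p = 0.0800). Ak1, the cytosolic form that muscle also makes, had 63.1 CPM in KO3 and 14.6 to 23.9 CPM elsewhere.

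Among other phosphatases, Phospho1, which encodes a phosphatase of phosphocholine and phosphoethanolamine, had 473, 941 and 1061 CPM in WT1 to WT3 against 103, 226 and 96.0 CPM in KO1 to KO3. It fell by 2.54 on the log2 scale (SE 0.46, edgeR adjusted p = 0.0163). The intestinal and placental-type phosphatase genes Alpi, Akp3 and Alppl2 had 1 count or none in each library, so Alpl was the alkaline phosphatase gene detected. The 4 calls of this list were lost in some fits with a library left out. Without WT3 the adjusted p was 0.0622 for Asl, 0.0880 for Shmt1, 0.0766 for Ahcyl1 and 0.0670 for Phospho1, and without WT2 it was 0.0681 for Shmt1 and 0.0515 for Ahcyl1.

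**Figure D5:**
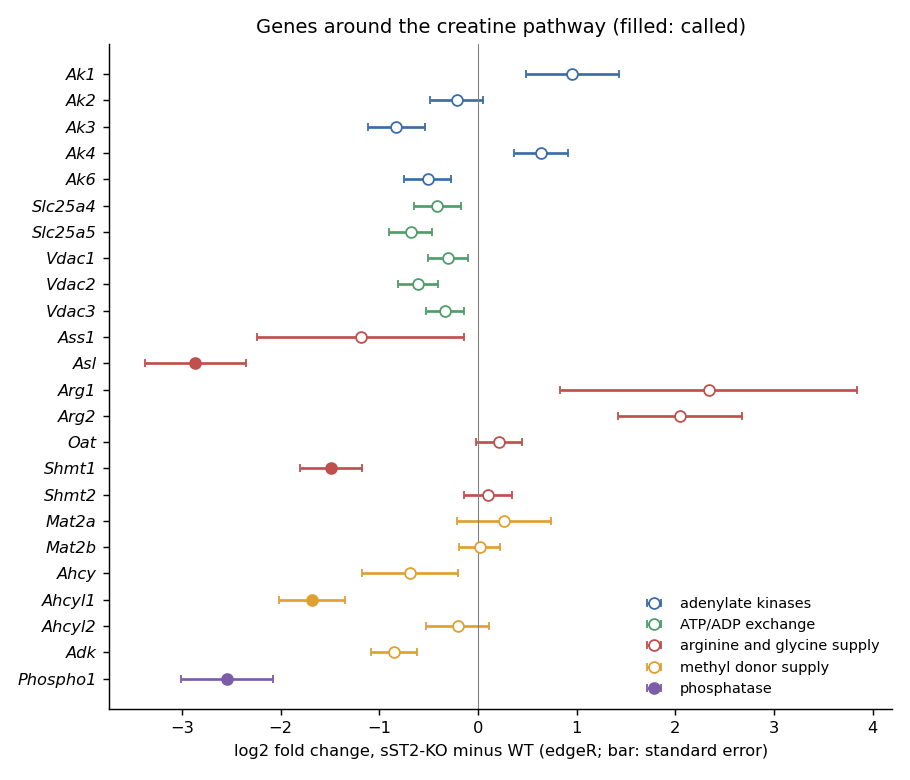
Log2 fold changes of sST2-KO over WT from edgeR, with standard errors, for the 24 tested genes around the creatine pathway, colored by role and filled where called. Asl, Shmt1, Ahcyl1 and Phospho1 are called lower, and the 5 ATP/ADP exchange genes lie between -0.68 and -0.31.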

How the data were processed

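Poly-A RNA of BAT from 3 WT and 3 sST2-KO mice was sequenced as paired-end reads of 150 bases from NEBNext Ultra libraries. From the paper's methods and the submitters' processing notes, reads were checked with FastQC 0.12.1 and aligned to mm39 with HISAT2 2.2.1. The authors counted them with htseq-count and deposited raw counts under gene symbols. The annotation, counter version and strand setting are not given in the sources used here. Sample titles gave the groups, and the number of unused sample columns was 0. Of 35976 rows, 27 carry a symbol turned into a date; none of these is named.

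The raw counts went into edgeR 4.0.16 in R 4.3.3: filterByExpr, TMM scaling, a quasi-likelihood test without covariates, and Benjamini-Hochberg adjustment over 14542 genes. DESeq2 1.42.0, which the paper's methods name, was an alternative. The SE is the log2 fold change over the square root of F, and 95% intervals are normal ones. Ratios within a library had 0.5 added to each count and were compared by exact permutation over samples. A limit of detection of 3 counts was used, which covers counting error only. The steps were tested on simulated data. Coordinates, exons and coding lengths are from GENCODE on GRCm39, and promoters from RefSeq.

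The members and gene lists were chosen with earlier results of these data known. Named by rule were the 8 members, called genes of the 30-gene list, the 3 genes most alike each tested member, Acta1, Atp2a1, Ucp1, Adipoq, Alb and Il1rl1; all others were named after their values were seen. One gene that this rule names is not reported here. Alternatives were RLE factors, total counts, dropping the filter, a minimum of 10 counts per sample, robust estimation, a block for the replicate number, any fold change, another added count, the mean of a list in place of its sum, and leaving out each library. Same-numbered libraries did not all deviate together. Chi-square per degree of freedom between libraries of a group was 36.6 to 104, far above sampling noise.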

Additional observations from a re-analysis of the deposited data

How the results depend on the processing

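Of the 7 creatine genes tested, 6 kept their direction in every fit, and Slc6a8 lay between -0.088 and 0.29 when a library was dropped. With scaling by total counts the median of all genes moved from 0.034 to 0.29 on the log2 scale, no creatine gene turned its direction and no call changed. Ckb (-1.24) passed with DESeq2 (-1.26) and with no filter (-1.25), so the members called lower went from 0 to 1 in each. Ckmt2 (4.88) lost its call with DESeq2 (4.96), which left 1 member called higher, and neither it nor Ckm could be tested at 10 counts in every sample, which also left 1. Under a replicate block, Ckmt2 (5.30, adjusted p = 0.0800) and Gatm (1.20, adjusted p = 0.0969) lost their calls and 0 members were called higher. The share of all genes called under the block, or with a library left out, was not counted. Counts of members called in those fits therefore cannot be set beside it, and a lost call is not shown to be particular to a member. The correlations of deviations of same-numbered libraries were -0.058, 0.21 and -0.31, so the numbers were not taken to pair the mice. With a library left out, members called higher ranged from 0 to 3 and those called lower stayed at 0, and the ranges were -1.55 to -0.92 for Ckb, 3.65 to 9.87 for Ckm, 4.12 to 10.97 for Ckmt2, 1.00 to 1.40 for Gatm, -1.32 to -0.74 for Gamt and -1.15 to -0.12 for Alpl. The log2 ratio of Ckm to Ckb lay between 6.64 and 12.65 and that of Ckm to the muscle list between 1.13 and 4.41. The log2 ratio of Ckmt2 to the muscle list (1.49) was -0.77 with 5 added to each count and -0.37 with the mean log2 CPM of the list, and that of Ckb to the adipocyte genes ranged from -0.78 to 0.23. The replicate block of the ratios cannot give a p below 0.25. Depth limits Ckmt1, and Ckmt2 in WT2 and WT3, where its ratio to the muscle genes in the other libraries would give too few counts to detect. The causes of the other shifts were not tested.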

Other observations

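The genes whose log2 CPM followed each member most closely over the 6 libraries are given as a description, with no test, since the libraries fall into 2 groups and share their depth. Ckm was most like its antisense gene A930016O22Rik, Myh4 and Acta1 (Pearson r 1.000, 0.999 and 0.999). Among the genes most like Ckmt2 were Smc4, a condensin subunit of dividing cells, and Klhl31, a muscle gene (r 0.999 and 0.998). Gatm was most like the chemokine gene Ccl7, the ribonucleotide reductase subunit Rrm2 and the chaperone Pdia3 (r 0.999, 0.995 and 0.995). Ckb was most like Hax1, Eprs and Gm31028 (r 0.993, 0.991 and 0.989), and Gamt most like Gga3, Ccdc90b and Nacc2 (r 0.991, 0.990 and 0.988). For Slc6a8 they were Rims3, Gm40755 and Noxo1 (r 0.983, 0.980 and 0.974), and for Alpl they were Pmp22, Chd1 and Dgat1 (r 0.993, 0.989 and 0.984).

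Smooth muscle, which also makes Ckb, had a marker sum of 337 to 441 CPM in WT and 541 to 1801 CPM in sST2-KO libraries, while 6 of its 8 genes had a log2 fold change under 0 with TMM and 5 of 8 with total counts. Of these 8 genes, 2 were called higher and 0 lower, beside 9.04% and 7.1% of all genes. Schwann cell and neuron markers summed to 71.9 to 84.6 CPM and 36.3 to 54.5 CPM. The sums of endothelial markers (1298 to 1711 and 1247 to 1949 CPM) and fibroblast markers (1920 to 6049 and 1127 to 10005 CPM) overlapped between the groups. So did that of the liver list (4704 to 13533 and 4005 to 10885 CPM). Of the 14 genes of the liver list, however, 5 were tested and 3 of these were called lower, beside 7.1% of all genes. The median log2 fold change of these 5 was -3.92. Alb, which is in this list, was called at -9.45, with 33870 counts in WT2 and 254 or fewer in every other library. How far the liver calls and this median rest on WT2 was not tested. Kidney tubule markers, from the organ where Gatm is best known, summed to 0.560 to 0.660 CPM in WT and 0.831 to 1.045 CPM in sST2-KO libraries. In each library 4 or 5 of these 6 genes had no count and none passed the expression filter. These sums lie near the limit of detection, so no difference can be read from them.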
